A study of Mus musculus with 4 samples.

Results

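Neuropeptides are short signalling peptides that are cut from longer precursor proteins in the secretory pathway. They are stored in dense-core vesicles and act on G protein-coupled receptors of neighbouring or distant cells. Thyrotropin-releasing hormone (TRH) is known from the hypothalamus, where it drives the release of thyrotropin from the pituitary, and neuropeptide Y (NPY) is known for its effects on feeding and on transmitter release. The genes described here code for the precursors of such peptides: Trh, Npy, the tachykinin genes Tac1, Tac2 and Tac4, Sst, Penk, Gal, Calca and Vip. They were chosen by name after a first reading of the same arrays, in which Trh had the lowest ratio, so that their differences between genotypes are a description and carry no test. The arrays held 11 probes for these 10 genes, among 39429 probes of 27574 named genes in all. Of the 11 probes 9, for 8 genes, were bright enough for the fit, which covered 28079 probes.

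RNA came from organs of Corti of E18.5 embryos (E, embryonic day), from the base-side part of the duct, freed of spiral ligament and ganglia. Mutants carried the genotype Sox2(creERT2);Tbx2(fl/fl) and are called Sox2-Tbx2LOF. Controls were Tbx2(fl/n.d.) without Cre, where n.d. marks an allele that was not determined. All embryos were of the NMRI strain, and the dams of both genotypes had received 4 mg tamoxifen at E16.5, with progesterone beside it according to the methods of the study. By the crosses described there, mutants also carried a copy of the fluorescent reporter R26mTmG. A Cre-negative littermate would carry it too and would be Tbx2(fl/fl), whereas the label of the controls leaves their second allele open. The recombinase is made where Sox2 is active, and the knock-in sits in the Sox2 gene of mutants alone. Each of 4 dual-colour arrays compared 1 Sox2-Tbx2LOF pool with 1 control pool of the same sex, and the 4 independent pools of a genotype each combined several organs. Arrays 1 and 2 held female pools and arrays 3 and 4 male pools. The Sox2-Tbx2LOF pool was labelled with Cy3 on arrays 1 and 3 and with Cy5 on arrays 2 and 4. A log2 ratio below 0 means a lower level in Sox2-Tbx2LOF than in control. Levels are log2 channel intensities after normalization and were compared between pools for 1 probe at a time, apart from the sums over marker lists near the end.

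The median spot signal was 346 to 412 in the Sox2-Tbx2LOF channel and 315 to 411 in the control channel, and 70.4% to 75.2% of spots were well above background. Ratios of arrays with the same dye order correlated across probes with r of 0.435 to 0.461, against −0.28 to −0.088 with swapped dyes, which is why the fit included a dye term. The probe of the targeted gene Tbx2 had ratios of −0.06, −0.24, −0.02 and −0.30 on arrays 1 to 4, and whether it lies in the part removed by recombination was not analysed here. Markers of hair cells were present, as all 7 on the list, such as Myo7a and Pou4f3, were bright enough to be tested. The OHC marker Slc26a5 was not well above background.

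The probe sequences show which part of each transcript was read. All 11 probes were 60 bases long. The letters AATAAA, the usual signal for cleavage and polyadenylation, stood in 5 of them (Trh, Tac2, Tac4, Penk and the CGRP probe of Calca), a place typical of the 3′ end of a transcript. The Npy probe A_51_P454873 differed, as it lay within the coding part and spanned an intron. Its ends lie 3763 bases apart on the plus strand of chromosome 6 (mm9, chr6:49773743-49777505), and genomic DNA does not hold its sequence in 1 piece. It is shown in full as the array files give it, and capitals mark the codons of the amidation and cleavage signal that directly follows the mature peptide in the precursor.
Npy probe: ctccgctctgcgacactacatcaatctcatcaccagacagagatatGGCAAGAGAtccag

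The stretches of 250 bases upstream of the start site are given for the 3 genes whose groups lay furthest apart, Trh, Npy and Tac4 (RefSeq, build GRCm38.p6). TBX2 is a transcription factor of the T-box family, which binds the core GGTGTGA. This core was searched on both strands (as GGTGTGA or TCACACC) and was found in none of the 9 neuropeptide genes with a promoter entry. Of 32851 upstream stretches of the same length in the same table, 3.33% held it. The absence concerns these letters in this window and says nothing about binding elsewhere. Capitals in the Trh stretch mark a nuclear receptor half-site (AGGTCA or TGACCT, searched on both strands and chosen after the sequences had been seen), which starts 57 bases before the transcription start. Nuclear receptor half-sites of this kind are bound by thyroid hormone receptors, through which thyroid hormone lowers Trh transcription in the hypothalamus. The half-site was present in 14% of all upstream stretches and, among the neuropeptide genes, in Trh and Calca.
Trh (chr6:92244651-92244900, minus strand): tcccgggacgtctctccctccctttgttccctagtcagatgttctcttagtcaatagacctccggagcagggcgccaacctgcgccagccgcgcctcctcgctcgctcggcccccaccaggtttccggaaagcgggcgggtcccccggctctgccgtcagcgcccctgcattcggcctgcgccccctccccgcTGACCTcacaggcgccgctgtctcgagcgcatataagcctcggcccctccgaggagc
Npy (chr6:49822460-49822709, plus strand): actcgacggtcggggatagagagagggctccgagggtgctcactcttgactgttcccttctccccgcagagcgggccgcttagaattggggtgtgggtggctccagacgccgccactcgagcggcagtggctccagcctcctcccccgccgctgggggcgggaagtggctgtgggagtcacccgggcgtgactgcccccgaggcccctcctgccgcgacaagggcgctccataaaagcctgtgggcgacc
Tac4 (chr11:95261279-95261528, plus strand): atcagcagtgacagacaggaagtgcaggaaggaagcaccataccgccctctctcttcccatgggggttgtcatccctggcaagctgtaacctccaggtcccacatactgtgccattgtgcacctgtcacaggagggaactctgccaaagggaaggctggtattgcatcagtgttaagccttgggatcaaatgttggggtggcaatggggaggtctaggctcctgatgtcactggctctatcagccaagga
The Trh and Npy stretches were rich in G and C, at 68.8% and 69.2%, against 54.4% in Tac4 and a median of 52.4% over all stretches.

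Trh, the precursor gene of thyrotropin-releasing hormone, was the member with by far the lowest ratio. In control pools 1 to 4 the level was 10.06, 9.992, 10.10 and 9.998, and in Sox2-Tbx2LOF pools it was 7.15, 7.08, 7.09 and 7.18. The 4 Sox2-Tbx2LOF pools were all below the 4 control pools, and the gap was many times wider than the spread within either genotype. The ratios on arrays 1 to 4 were −2.90, −2.92, −3.01 and −2.82, with a mean of −2.91 ± 0.08 (SD, n = 4), or 7.53-fold lower in Sox2-Tbx2LOF. Trh had the lowest mean ratio of the 28079 tested probes. In tissue pools, fewer cells of a type and less RNA per cell cannot be told apart.

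Trh RNA was still measurable in Sox2-Tbx2LOF pools. Before any correction the median signal of the 4 Trh spots was 104, 147, 113 and 134 there, over a local background of 32.5, 79.8, 32 and 70.5. In control pools the Trh signal was 1091, 904, 1232 and 882. All 4 Trh spots were judged well above background in both channels of each array. On array 1, 1 of them was flagged as an outlier and left out of the normalized values. The offset that stabilises dim spots pulls such ratios towards 0, and the log ratio computed by the scanner software without such an offset put Trh between −3.84 and −3.64 on the 4 arrays. The probe (A_55_P2071349, chr6:92192061-92192120 in mm9, minus strand) starts at base 1318 of the Trh transcript.

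**Figure D1:**
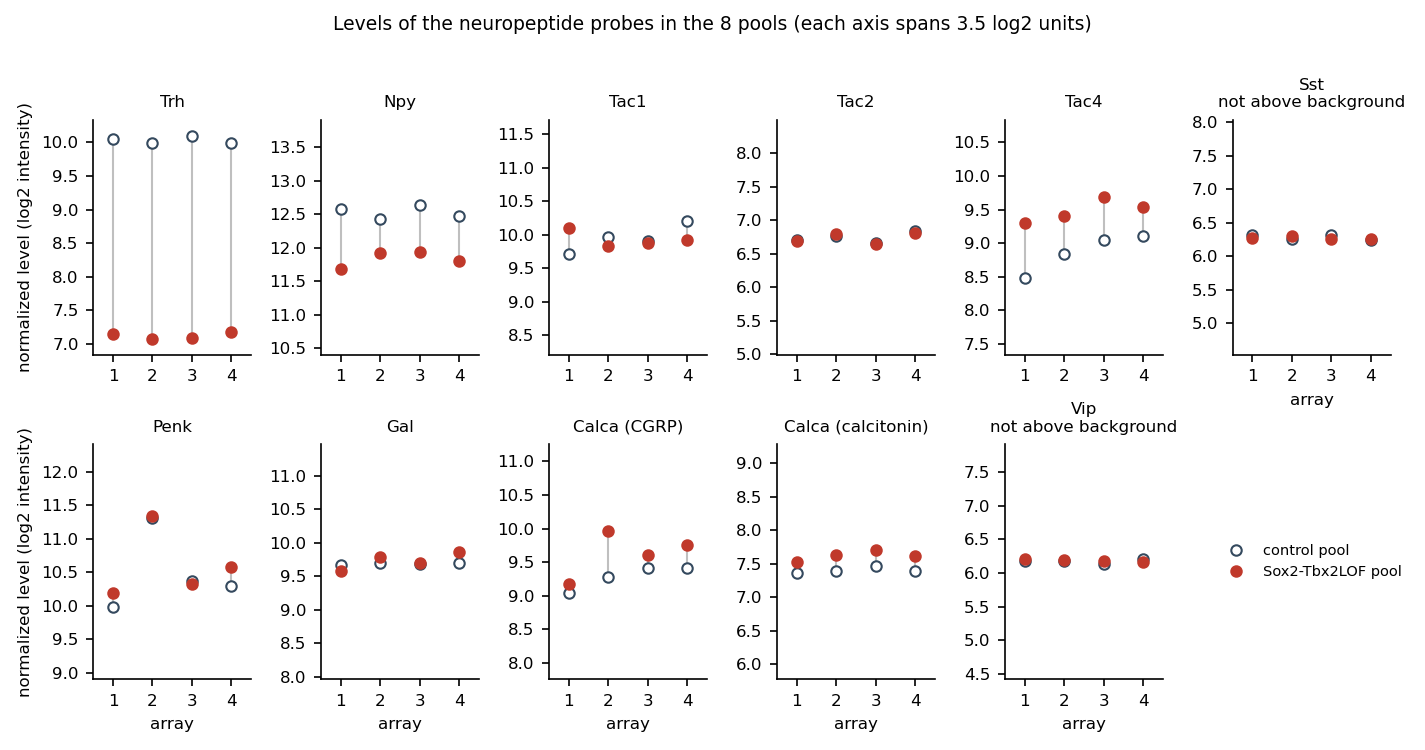
Normalized log2 level of each neuropeptide probe in the 8 pools, plotted by array, with filled points for Sox2-Tbx2LOF pools, open points for control pools and a grey line joining the pools of an array. Trh shows the wide gap between 7.08 to 7.18 and 9.99 to 10.10, Npy and Tac4 show narrower gaps in opposite directions, and Penk is high in both pools of array 2.

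Npy, the precursor gene of neuropeptide Y, was lower in Sox2-Tbx2LOF pools as well, with a far smaller difference. Control pools had levels of 12.58, 12.43, 12.63 and 12.47, and Sox2-Tbx2LOF pools had 11.68, 11.93, 11.93 and 11.80. The groups did not overlap. The Npy ratios on arrays 1 to 4 were −0.90, −0.50, −0.70 and −0.67, with a mean of −0.69 ± 0.16 (SD, n = 4), or 1.62-fold lower in Sox2-Tbx2LOF. Npy was 26th from the lowest ratio. Local background was small beside its spot signal, which was 3181 to 4301 in Sox2-Tbx2LOF and 4980 to 6983 in control, and the scanner software gave nearly the same ratios, from −0.90 to −0.49.

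The tachykinins share a C-terminal motif and act on the receptors Tacr1 to Tacr3, and their 3 genes differed from each other in these pools. Tac4, the gene of hemokinin-1, was the member with the highest mean ratio. Its level was 8.48, 8.84, 9.05 and 9.11 in control pools and 9.31, 9.41, 9.69 and 9.54 in Sox2-Tbx2LOF pools. The lowest Sox2-Tbx2LOF pool stood just above the highest control pool, but within each array the Sox2-Tbx2LOF pool was clearly higher. The Tac4 ratios were 0.82, 0.56, 0.64 and 0.43, with a mean of 0.61 ± 0.16 (SD, n = 4), or 1.53-fold higher, and the 28th highest ratio. The probe is A_51_P474498 (mm9, chr11:95130516-95130575). The mean lay close to the minimum of 1.5-fold. Without array 1 it was 0.57 and without array 2 it was 0.58, both under that minimum, and when the pools were treated as unpaired groups Tac4 was not called.

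Tac1, the gene of substance P and neurokinin A, had no common direction. Its ratios were 0.38, −0.14, −0.03 and −0.29, with a mean of −0.02 ± 0.29 (SD, n = 4). The pools overlapped, at 9.83 to 10.10 in Sox2-Tbx2LOF and 9.72 to 10.21 in control. Tac2, the gene of neurokinin B, was dim but above background on all arrays, with levels of 6.64 to 6.80 in Sox2-Tbx2LOF and 6.67 to 6.84 in control. Its mean ratio was −0.01 ± 0.03 (SD, n = 4), the smallest spread among the tested members. The offset also narrows the spread of so dim a probe. The scanner software's ratios for Tac2 ran from −0.20 to 0.08.

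Calca yields 2 different hormones by alternative splicing, calcitonin and calcitonin gene-related peptide (CGRP), the latter a transmitter of efferent fibres in the inner ear, and a probe of either form was present. The CGRP probe (A_52_P154101, mm9, chr7:121775204-121775263) had ratios of 0.13, 0.69, 0.19 and 0.34, with a mean of 0.34 ± 0.25 (SD, n = 4). Its levels were 9.18, 9.97, 9.60 and 9.76 in Sox2-Tbx2LOF and 9.05, 9.28, 9.41 and 9.42 in control. They overlapped because both pools of array 1 were low, and the Sox2-Tbx2LOF pool was the higher one on each array. The calcitonin probe (A_55_P2139942, mm9, chr7:121776948-121777007) had ratios of 0.16, 0.25, 0.24 and 0.22, with a mean of 0.22 ± 0.04 (SD, n = 4). Its levels of 7.52, 7.64, 7.71 and 7.61 in Sox2-Tbx2LOF all lay above those of 7.36, 7.39, 7.46 and 7.40 in control. Both forms thus had a higher level in Sox2-Tbx2LOF on 4 of 4 arrays, with the 111th and 300th highest ratios, and both were under the 1.5-fold minimum. Calcb, the neighbouring gene of a second CGRP, was not well above background in control pools and was not tested.

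The remaining members showed no separation of the genotypes. Penk, the precursor gene of the enkephalins, had ratios of 0.21, 0.04, −0.04 and 0.29, with a mean of 0.12 ± 0.15 (SD, n = 4). Its level varied more between arrays than between genotypes, since both pools of array 2 stood at 11.34 and 11.30 while the other pools lay between 9.98 and 10.57. Gal, the gene of galanin, had ratios of −0.10, 0.08, 0.03 and 0.17, with a mean of 0.05 ± 0.11 (SD, n = 4), and its levels lay between 9.57 and 9.86 in all pools. Sst, the gene of somatostatin, and Vip, the gene of vasoactive intestinal peptide, were not well above background in any pool. Their probes gave no measure of a difference, and the 2 genes were not tested. Crh, the precursor gene of corticotropin-releasing hormone, was not well above background either.

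**Figure D2:**
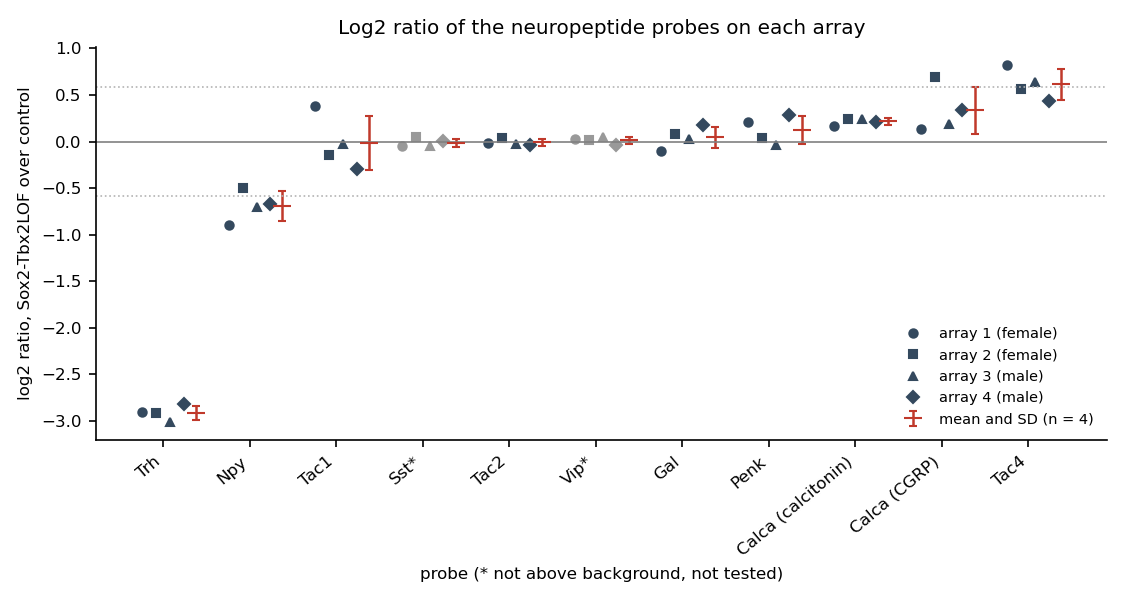
Log2 ratio of Sox2-Tbx2LOF over control for each neuropeptide probe, ordered by its mean, with a point for each array (circles and squares female, triangles and diamonds male) and the mean with its SD (n = 4) in red. Dotted lines mark the 1.5-fold minimum, and Trh lies far below it at −2.91 while Npy at −0.69 and Tac4 at 0.61 lie just beyond it.

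Of the 9 tested probes, 3 (Trh, Npy and Tac4) met the criteria of an adjusted p under 0.05 in limma and at least 1.5-fold. Over all 28079 probes 0.249% did, with 0.128% lower and 0.121% higher, and 0.987% met the first criterion alone. The levels of the genotypes did not overlap for 4 of the 9, namely those 3 and the calcitonin probe of Calca, against 2.53% of all probes. The sign was the same on 4 arrays for 5 of the 9, against 9.01% of all probes. Since the genes had been picked with these ratios known, nothing follows from the higher shares among them.

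The sex of the embryos was not used in choosing the genes. The Trh ratio had a mean of −2.91 on the 2 female arrays and −2.92 on the 2 male arrays, and Npy had −0.70 and −0.68. Tac4 had 0.69 and 0.54. In the limma fit with a sex term over all tested probes, none of the 9 members passed (adjusted p 0.9999 for each), and the same held for the rest of the array, with 0% of probes past the threshold. The smallest unadjusted p was that of Tac1, 0.0456 in limma, where the ratio was 0.12 in females and −0.16 in males. The SE of the sex difference was 0.105 to 0.141 for the 9 members on the log2 scale, over 2 arrays of each sex.

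For the receptors of these peptides no change was called. Of 28 receptor genes listed, 20 were tested, and none passed the adjusted threshold in limma. Their median ratio was 0.05, with 15 above and 5 below 0, against a median of 0.00 over all tested probes. Trhr, the main receptor of TRH, had the highest ratio of the list, at 0.26 ± 0.19 (SD, n = 4), and was higher on 4 of 4 arrays. Its levels were 9.76, 10.09, 9.98 and 9.91 in Sox2-Tbx2LOF and 9.70, 9.60, 9.83 and 9.58 in control, so that the groups overlapped, and the difference did not pass (limma adjusted p 0.0704). Without array 4 the adjusted p of Trhr was 0.0378 in limma, and this was the only 1 of 12 alternative settings in which it passed. The second TRH receptor, Trhr2, was not well above background.

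Among the receptors of NPY, Npy1r had a ratio of −0.09 ± 0.06 (SD, n = 4) and Npy4r of 0.12 ± 0.07. Npy6r had 0.22 ± 0.25 (limma adjusted p 0.361), and Npy5r was not tested. Without array 4 the adjusted p of Npy6r was 0.0237 in limma, again the only 1 of 12 alternative settings in which it passed. Npy2r, a presynaptic receptor that restrains transmitter release, was not well above background in any Sox2-Tbx2LOF pool and was above it in 3 of 4 control pools. Set against the lowest signal well above background, its mean level in control was 1.12-fold higher, a value without an error. The difference did not pass (limma adjusted p 0.108). The processing decided this probe. With the log ratio of the scanner software, where no offset is added, it was at −0.998 (limma adjusted p 0.0275), and in the series matrix it was at 0 (adjusted p 1). Of the tachykinin receptors, Tacr1 (the substance P receptor) had 0.09 ± 0.03 and Tacr2 had 0.05 ± 0.27, and Tacr3 was not tested.

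Making TRH takes several enzymes, and none of their genes passed the test. The precursor is cut by the prohormone convertases Pcsk1 and Pcsk2, trimmed by carboxypeptidase E (Cpe), amidated by Pam, and its first residue is cyclised by Qpct. Their mean ratios were 0.13, 0.07, 0.03, 0.10 and −0.04 in that order. Of the 17 genes for processing and secretion, all were tested and none passed (limma). Scg2, a granin of secretory granules, had the highest mean ratio of the list, 0.32, but an SD of 0.57 over the 4 arrays (limma adjusted p 0.0922). Without array 2 it was 0.42 (adjusted p 0.00261), and without array 4 it was 0.22 (adjusted p 0.174). Its ratios were 0.71 and 0.87 on arrays 1 and 3, and −0.34 and 0.04 on arrays 2 and 4, which carried the dyes the other way round. At the other end of the list, Pcsk1n, which codes for an inhibitor of Pcsk1, had −0.05.

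For the peptide-degrading enzymes, all 10 listed genes had a tested probe, and none passed (limma). The brightest probe, used for Ece2, belongs by its transcript to another gene, Eef1akmt4, and had −0.09. The probes assigned to Ece2 itself, A_52_P271572 and A_55_P2033490, both had 0.02 and did not pass either. Ratios ran from −0.10 for Ace, angiotensin-converting enzyme, to 0.10 for Trhde, the ectoenzyme that inactivates TRH outside cells. Pgpep1, the cytosolic enzyme that removes the first residue of TRH, had −0.05 ± 0.06 (SD, n = 4).

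Of 47 other peptide precursor genes listed, 31 were tested, and 1 was called, against 0.249% of all tested probes. The list was chosen with earlier results of these data known, so this count is a description. Uts2b, the gene of urotensin 2B, a vasoactive peptide related to urotensin 2, was lower in Sox2-Tbx2LOF. Its level was 7.42, 7.78, 7.54 and 7.83 in control pools and 6.74, 7.03, 6.97 and 7.05 in Sox2-Tbx2LOF pools, with no overlap. The Uts2b ratios were −0.68, −0.75, −0.58 and −0.77, with a mean of −0.70 ± 0.09 (SD, n = 4, limma adjusted p 2.75e-04), or 1.62-fold lower. The Uts2b probe (A_52_P420665, mm9, chr16:27353816-27361076, minus strand) spans an intron, like that of Npy. With the series matrix values Uts2b no longer passed (limma adjusted p 0.297), although its ratio there was −1.27. The highest ratio of the list was that of Grp, the gene of gastrin-releasing peptide, at 0.24 ± 0.17 (SD, n = 4, limma adjusted p 0.0675). The median of the 31 genes was −0.02, with 10 above and 21 below 0.

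**Figure D3:**
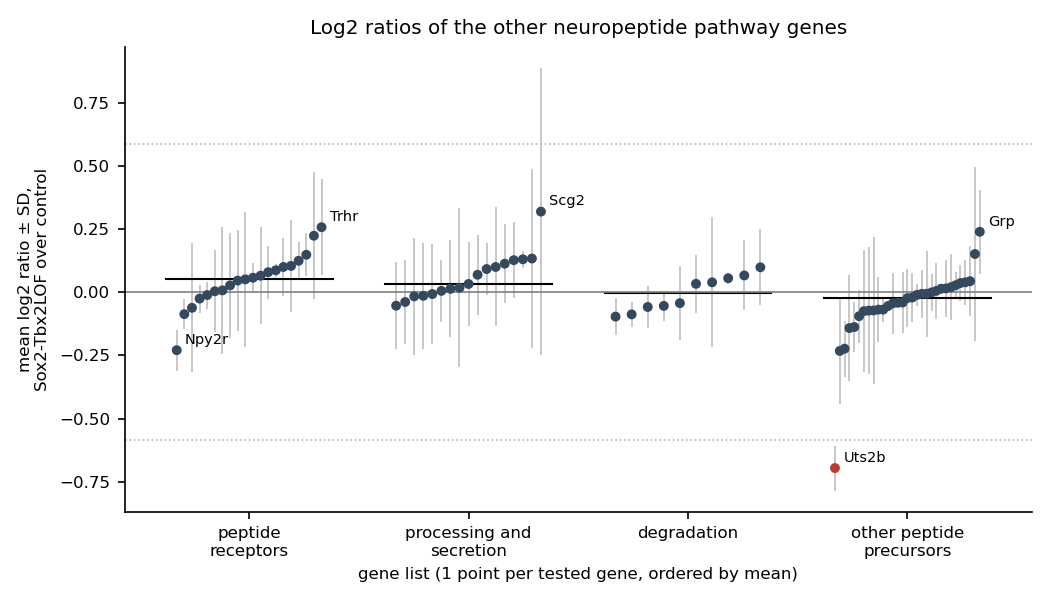
Mean log2 ratio of Sox2-Tbx2LOF over control with its SD (n = 4 arrays) for each of the 78 tested genes in 4 lists of the neuropeptide pathway, with a black line at the median of each list and dotted lines at the 1.5-fold minimum. Uts2b, in red at −0.70, was the single gene that was called, and the receptors, processing enzymes and degrading enzymes all lay inside the dotted lines.

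The genes with the most similar levels to Trh over the 8 pools were Prdm12 (Pearson r of 0.995), Gm35208 (0.993), 3830417A13Rik (0.993), Wfdc12 (0.991) and Pkd2l1 (0.988). These values describe the probes and rest mostly on the gap between genotypes, which the 8 pools share. Prdm12, which codes for a zinc finger factor known from pain-sensing neurons, had a mean ratio of −2.55 ± 0.11 (SD, n = 4). Wfdc12, a protease inhibitor gene, had −1.54 ± 0.03, and Pkd2l1, an ion channel gene of acid-sensing taste cells and of neurons that contact the cerebrospinal fluid, had −1.48 ± 0.10. Gm35208 had −0.87 ± 0.06, and 3830417A13Rik had −0.64 ± 0.06 and was well above background in 2 of 4 Sox2-Tbx2LOF pools.

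**Figure D4:**
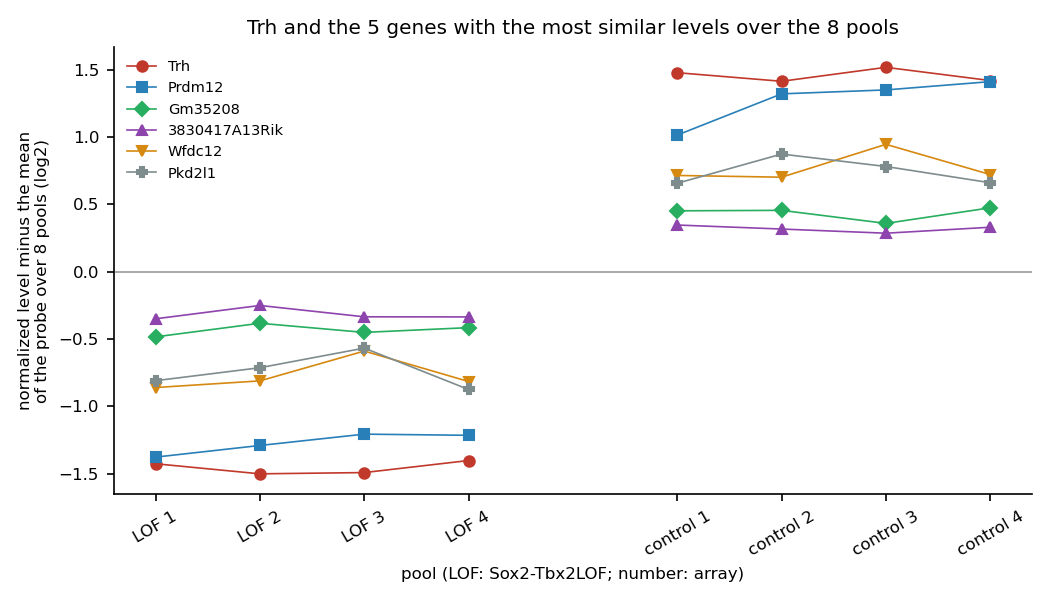
Normalized log2 level of Trh and of the 5 genes most similar to it in the 4 Sox2-Tbx2LOF and the 4 control pools, each as the difference from the mean of its probe over the 8 pools. All 6 genes lie below their mean in each Sox2-Tbx2LOF pool and above it in each control pool, with the widest gap for Trh.

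Among the cell type marker lists, that of IHC markers had the lowest median ratio, and the medians of the other lists ran from −0.11 to 0.12. The list of 6 IHC markers had a median of −0.74. By their brightest tested probes, 4 of the 6 were called lower in limma, against 0.128% of all tested probes. These were Fgf8 at −1.57, Cabp2 at −1.17, Dnajc5b at −0.81 and Slc17a8 at −0.66. Other tested probes were at −1.26 for Fgf8 (called), −0.52 for Dnajc5b (not called) and −0.12 for Slc17a8 (limma adjusted p 0.619). The marker lists were chosen with earlier results of these data known, so nothing follows from the higher share. Otof was at −0.40 and lower on 4 of 4 arrays (limma adjusted p 0.00984), but under the 1.5-fold minimum. Calb2 was at 0.01. The summed linear level of a list weights each probe by its brightness, and Otof made up 76.9% of that of the IHC list. It was 7376 to 9660 in Sox2-Tbx2LOF pools and 10369 to 13257 in control pools. Of the 5 OHC markers tested, Strip2 was called higher at 0.75, against 0.121% of all tested probes called higher. It was not called when the pools were treated as unpaired (limma adjusted p 0.0681). Another, dimmer Strip2 probe was at 0.12 (limma adjusted p 0.623). The summed level of the OHC list was 12413 to 14386 in Sox2-Tbx2LOF and 11482 to 12019 in control. Of 8 markers of pillar and Deiters cells none was called, and their median ratio was 0.01, with 4 above and 4 below 0. The summed level was 82685 to 87386 in Sox2-Tbx2LOF and 87032 to 94250 in control. Etv5, at −0.24, made up 29.5% of that sum, which therefore does not stand for the list as a whole. Within that list Hey2 was higher at 0.29 and Etv4 lower at −0.27 (limma adjusted p 0.0409 and 0.0474). The list of 3 inner supporting cell markers had a median of 0.02 with none past the threshold, and for the 7 general hair cell markers the median was 0.04, again with none. The part of these cell types in the ratios of Trh, Npy and Tac4 was not tested.

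Several of the peptides are typical of sensory neurons, efferent fibres or glia, which the dissection could have left in the tissue. Of 10 neuron markers listed, such as Stmn2, Nefl and Tubb3, 9 were bright enough to be tested. None of the 9 passed (limma), their median ratio was 0.03, and their summed level was 140336 to 144209 in Sox2-Tbx2LOF and 137497 to 140111 in control. For 6 markers of glia and 6 of mesenchyme the median ratios were 0.01 and 0.12, with none past the threshold. The summed mesenchyme level was 183657 to 192863 in Sox2-Tbx2LOF and 154849 to 189651 in control. Lists of 7 blood and vessel markers and 4 tested melanocyte markers had medians of 0.00 and −0.11, and none of their genes passed. The neuron sum was slightly higher in Sox2-Tbx2LOF, as were both Calca probes, and its part in the Calca ratios was not tested.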

How the data were processed

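RNA of 4 Sox2-Tbx2LOF and 4 control pools was read on 4 dual-colour Agilent arrays on a shared slide and scan. The deposited scanner files hold unnormalized spot intensity values from Agilent Feature Extraction 10.7.3.1 and a log10 ratio of red over green signal, which the scanner software of the authors had already freed of background and dye bias. The deposited series matrix holds the authors' signed fold change, whose steps were not given in the sources used here. Its columns ran with the scanner ratio of Sox2-Tbx2LOF over control (r across tested probes 0.918 to 0.941), which settled the direction, its median was 1 on each array, and 12455 to 12624 of its values per array were exactly 1.

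Intensities were background-corrected (normexp, offset 50) and loess-normalized in limma 3.58.1 (R 4.3.3), and channel levels were then scaled between arrays by their average brightness (Aquantile). Spots of a probe were averaged, and outlier spots (3.23% to 3.56%) were left out. No spot was saturated. A probe was tested when well above background on at least 3 of 4 arrays in either genotype, in more than 0.5 of its spots, with a value on all 4 arrays. This left 11350 probes untested. The lmFit and eBayes functions of limma were run on the log2 ratios with a dye term and Benjamini-Hochberg adjustment over all tested probes, and a probe was called at an adjusted p under 0.05 and at least 1.5-fold. The pair on an array shares its spots, hybridisation and sex, which is the block of the design. Another fit of the same kind held a sex term. The study itself names unpaired SAM, which was run as an alternative with all 70 regroupings.

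For a gene with several probes in a list, the brightest tested probe was used. For a probe that was dim in 1 genotype, the bound compared the mean of the other genotype with the lowest signal well above background. The members and gene lists were chosen with earlier results of these data known. Named were all member probes, TRH, NPY and tachykinin receptors, TRH enzymes, the extremes and passing genes of each list, and the 5 genes most like Trh. Gene symbols came from RefSeq accessions for 28328 probes. Promoters (GRCm38.p6) were found for 9 of 10 members, not for Penk, and positions of probes were taken from the array files (mm9). The number of arrays limits the precision.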

Additional observations from a re-analysis of the deposited data

Results flagged for a closer look

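Among 46 groups of 4 values examined for a value far from the others, 1 stood out, where chance alone gives about 1 in 20. It was the ratio of Tacr1, the substance P receptor gene, on array 1, at 0.13 against 0.07 to 0.08 on the other arrays. No cause was tested.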

How the results depend on the processing

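The counts of calls and the ratios of the tested neuropeptide probes, the named pathway genes, the markers past the threshold and the genes most like Trh were recomputed under other settings (for the last pair of groups, chosen after seeing the data), and no called ratio among them changed sign. The pairing of the pools on an array was dropped in an unpaired limma fit without the replicate block, which called 59 probes in place of 70, and 2 neuropeptide probes in place of 3, with Tac4 lost. SAM gave 59 and 2 as well. With the scanner software's log ratio 124 probes were called and 2 other pathway genes in place of 1 (Npy2r beside Uts2b). With the series matrix these counts were 2 and 0, and Trh alone of the neuropeptide probes stayed called (1 in place of 3). Between 12455 and 12624 series matrix values per array are exactly 1 by steps that are not known, and what this does to the counts was not tested. Without the minimum fold 277 probes passed. Leaving out 1 array gave 68 to 106 probes, with the highest count without array 1 (74 lower in place of 36), and 2 to 3 neuropeptide probes, as Tac4 was lost without array 1 or array 2. Trh was called in 13 of 13 alternatives with a call, with ratios from −3.80 to −2.89, and its size depended on the offset (−3.27 with an offset of 16). Npy was called in 12 of 13 (−0.74 to −0.64) and Tac4 in 8 of 13 (0.54 to 0.72). Uts2b was called in 12 of 13 (−1.27 to −0.67). The ratios of Tac1, Tac2, Gal, Cpe, Pam, Qpct and Pcsk1n, never called, changed sign under some settings. The count for the sex term was 0 with and without the dye term. For dim probes such as Tac2, Npy2r and Uts2b, the signal over background limits how well the size of a ratio is known.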
